A study of Bos taurus with 32 samples.

Results

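The miR-30 family is a group of microRNAs that share the same seed, the short stretch near the 5′ end through which a microRNA pairs with its target messenger RNAs. Members were taken by name as every bovine miRNA on the array called bta-miR-30 with a letter from a to f, with or without the suffix -5p. This gave 6 of the 672 miRNAs on the array, which were bta-miR-30a-5p, bta-miR-30b-5p, bta-miR-30c, bta-miR-30d, bta-miR-30e-5p and bta-miR-30f. The rule uses the name alone. The opposite arm of 1 hairpin, bta-miR-30b-3p, carries another seed and is not a member.

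Fat was taken after slaughter from 16 cross bred steers (Hereford × Aberdeen Angus). Of these, 8 steers received a Control diet and 8 a High fat diet, in which lipid was raised with flaxseed. From every steer, backfat, as the subcutaneous depot, and the fat around the kidney (perirenal), as the visceral depot, were sampled, so that 32 samples made 4 groups of 8. Total RNA of each sample was labelled with Cy3 and hybridised to 1 Agilent miRNA array, on which each miRNA had 20 spots. The steers were yearlings of the same cross in both diets, and whole fat tissue was used, which holds vessel, blood and connective tissue cells besides adipocytes. In such tissue a lower level can come from fewer cells that express a miRNA or from less of it per cell, and these cannot be told apart.

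In fat, the miR-30 family is known as proadipogenic: its members rise as preadipocytes turn into adipocytes, and they favour that step over bone formation by repressing RUNX2, a transcription factor of osteoblasts. miR-30b and miR-30c are also known to promote the thermogenic programme of brown and beige fat by repressing NRIP1 (RIP140). The members come from several hairpins. In the RefSeq annotation of the cow genome (assembly ARS-UCD2.0), all 6 members were matched to a hairpin gene, and these lay in 3 neighbouring pairs: bta-miR-30b-5p with bta-miR-30d, bta-miR-30c with bta-miR-30e-5p, and bta-miR-30a-5p with bta-miR-30f. In the first 2 pairs no other gene was listed between the hairpins, and in the last pair 1 gene was. The array was designed on another genome build, so no positions are given.

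The brightness of the arrays bears on every comparison of diets. The summed intensity of all miRNAs lay between 26021 and 79290 on the arrays of the Control diet and between 96888 and 366714 on those of the High fat diet, and the median was 5.42 times higher with the High fat diet. The labelling spike-ins, RNAs added in equal amounts, had a ratio of 0.847 between the same diets. Each group was hybridised on its own slide and each diet was scanned in its own session, so that slide and group, and session and diet, cannot be told apart. For this reason a diet difference of a member is given below relative to other miRNAs of the same array: to the 75th percentile over the 91 miRNAs detected on all 32 arrays (called scaled intensity, on the log2 scale), and then to the other members, which needs no scaling between arrays but can still vary with their brightness. The p-values measure the spread between the samples of a group, each from another steer and on another array. The pairing of depots by steer was used only where the steer is named as a block.

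Detection already separated the members. An array call of detected was made for bta-miR-30b-5p, bta-miR-30c, bta-miR-30d and bta-miR-30f on all 32 arrays. bta-miR-30a-5p was detected in 5 of 8 subcutaneous and 3 of 8 visceral samples of the Control diet and in all 16 samples of the High fat diet. bta-miR-30e-5p was detected in 0 of 16 Control samples, in 8 of 8 subcutaneous and in 5 of 8 visceral samples of the High fat diet. The limit of detection was taken on each array as the lowest intensity of any miRNA detected there. On the scaled log2 scale it had group medians of -6.79 and -5.85 in subcutaneous and visceral fat of the Control diet. With the High fat diet they were -9.52 and -8.50, so a dim miRNA was more easily missed on Control arrays. For bta-miR-30e-5p the calls also depended on the measure used: a deposited normalised value above 0 was present in 2 of 8 and 1 of 8 samples of the High fat diet.

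**Figure D1:**
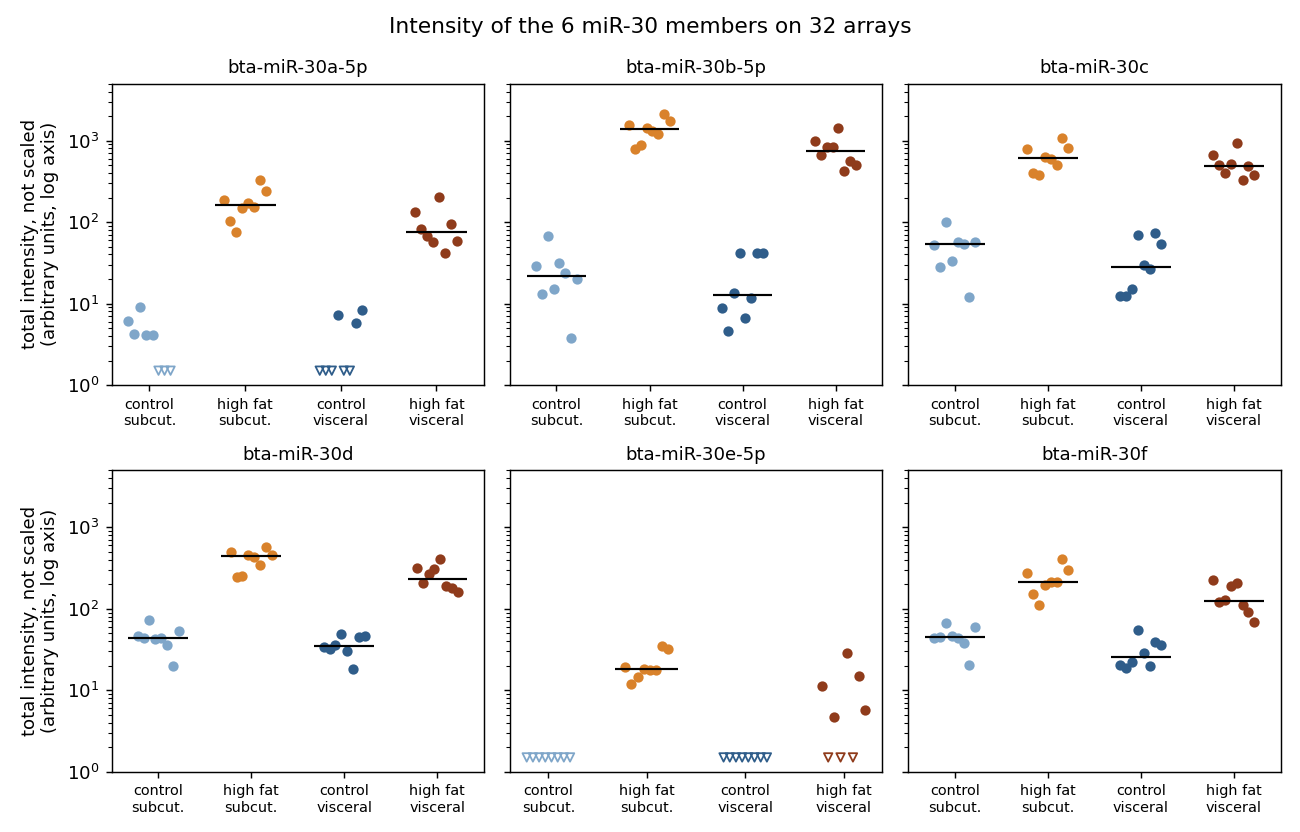
Total intensity of each member (log axis, arbitrary units, not scaled between arrays) on the 32 arrays, by diet and depot. Each filled point is 1 sample, open triangles at the bottom mark samples in which the member was not detected, and bars give the median of groups detected in all 8 samples. bta-miR-30b-5p lies at 3.73 to 67.7 on Control arrays and at 420 to 2114 on High fat arrays, while the groups of bta-miR-30d and bta-miR-30f lie closer together; levels of different members cannot be compared, since each has its own probes.

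Relative to the 75th percentile of the 91 reference miRNAs, the members differed in the size and sign of their change between diets. The 91 miRNAs had median differences of -0.91 and -0.80 in subcutaneous and visceral fat on this scale. Relative to that median, bta-miR-30f, called lower below, was higher by 0.32 and 0.63. In subcutaneous fat 5 members were higher and 1 was lower with the High fat diet (limma, Benjamini-Hochberg adjusted p under 0.05), and in visceral fat 5 were higher and 0 lower. Among all 233 miRNAs tested, 41.6% were called higher and 34.3% lower in subcutaneous fat, and 42.1% higher and 29.6% lower in visceral fat. The median log2 difference over the 6 members was 0.81 in subcutaneous and 1.04 in visceral fat, beside 0.10 and 0.17 over all miRNAs tested. bta-miR-30e-5p, detected in 0 of 8 Control samples of either depot, entered the test only through High fat arrays and could not come out lower. It is among the members called higher, and both medians rest on it and on bta-miR-30c. The sign of every member's difference turned under at least 1 other scaling or background correction, as given member by member below. With the labelling spike-ins as the scale all 6 members were higher in both depots, whereas with the 75th percentile over all 672 miRNAs, which fell on the value of undetected miRNAs on 15 of the 16 Control arrays, 0 were called higher.

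bta-miR-30b-5p, one of the members tied to thermogenic fat, had the largest difference among the 4 members detected on all arrays. In subcutaneous fat its intensity before scaling was 3.73 at the lowest, 21.8 at the median and 67.7 at the highest of the 8 Control samples, and 799, 1375 and 2114 in the same order with the High fat diet. The visceral depot gave 4.61, 12.7 and 42.0 for the Control diet and 420, 751 and 1438 for the High fat diet. Before scaling, no sample of the High fat diet overlapped with a Control sample in either depot. The same held for bta-miR-30c, bta-miR-30d and bta-miR-30f on these brighter arrays. After scaling bta-miR-30b-5p still did not overlap, while bta-miR-30d and bta-miR-30f did. For this and the later statements on overlap, the share over all miRNAs was not counted, so none of them can be read as particular to the miRNAs named.

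After scaling, the log2 level of bta-miR-30b-5p rose from -3.63 ± 0.68 (SD, n = 8) to -0.47 ± 0.13 (SD, n = 8) in subcutaneous fat, a difference of 3.16 ± 0.28 (SE, adjusted p = 9.4e-12 in limma). In visceral fat it went from -3.60 ± 0.87 to -0.46 ± 0.21 (SD, n = 8 each), a difference of 3.14 ± 0.28 (SE, adjusted p = 1.3e-11 in limma). Of the 91 miRNAs detected on all arrays, only 1 had a larger rise in each depot on this scale, although over the alternatives bta-miR-30b-5p came as low as 14th in subcutaneous and 13th in visceral fat. The 91 miRNAs had median differences of -0.91 and -0.80 in the same depots. The difference shrank to 0.64 and 0.59 with normexp and turned to -0.98 and -1.31 with the 75th percentile over all miRNAs. The level spread more among Control steers than among the others. In visceral fat of the Control diet the 3 brightest arrays (steers 211, 410 and 405) lay between -2.84 and -2.55, above the other 5 at -4.90 to -3.59. In subcutaneous fat of the Control diet the 3 brightest arrays, at -4.03 to -2.82, overlapped with the other 5, at -4.94 to -3.12. The lowest value there came from steer 405, whose array had the lowest summed intensity of its group. In both High fat groups the 3 brightest arrays overlapped with the others. The part of array brightness in the diet difference was not tested.

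bta-miR-30c, the other member known from thermogenic fat, came second among the members detected on all arrays. In subcutaneous fat its scaled log2 level had a lowest, median and highest value of -3.24, -2.41 and -2.09 with the Control diet and of -1.81, -1.51 and -1.40 with the High fat diet. The visceral values were -3.56, -2.45 and -1.75 against -1.38, -0.93 and -0.75. The diets did not overlap in either depot. The difference was 0.94 ± 0.21 (SE, adjusted p = 2.1e-04 in limma) in subcutaneous fat, 20th largest of 91, and 1.68 ± 0.21 (SE, adjusted p = 2.1e-08 in limma) in visceral fat, 10th largest of 91. Its sign turned in subcutaneous fat with the deposited normalised values (-0.46), with normexp background correction (-0.32) and with the percentile over all miRNAs (-3.20), and in visceral fat with the last of these only (-2.77).

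The spread of bta-miR-30c among Control steers was wide in visceral fat. Steers 108, 111 and 209 had values from -3.56 to -3.46, about 1 log2 unit below the next steer at -2.47, although the same 3 steers lay between -2.71 and -2.27 in their subcutaneous fat. Steers given the High fat diet showed no such gap.

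bta-miR-30d, known as a repressor of RUNX2 together with miR-30a, differed little between diets on this scale. Its intensity before scaling was 19.8, 43.5 and 73.0 (lowest, median and highest) in subcutaneous fat of the Control diet and 244, 443 and 580 with the High fat diet. Divided by the percentile of the array, the groups overlapped in both depots. The log2 difference was 0.29 ± 0.13 (SE, adjusted p = 0.047 in limma) in subcutaneous and 0.37 ± 0.13 (SE, adjusted p = 0.015 in limma) in visceral fat. Neither call was stable. In subcutaneous fat the adjusted p was 0.054 with position on the slide as a block, 0.082 with spot intensities and 0.90 with quantile normalization, and it went above 0.05 without any 1 of 11 of the 16 samples, up to 0.091. In visceral fat it was 0.38 with quantile normalization, and the methods' t-test gave 0.051 after Benjamini-Hochberg adjustment. In both depots the sign turned with the deposited values (-1.10 and -0.70), with normexp (-0.67 and -0.56) and with the percentile over all miRNAs (-3.85 and -4.08).

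bta-miR-30f was the only member that was called lower. Its scaled log2 level was -2.48 ± 0.26 in subcutaneous fat of the Control diet and -3.06 ± 0.24 with the High fat diet (SD, n = 8 each), so that it fell by 0.58 ± 0.16 on the log2 scale (SE, adjusted p = 0.0017 in limma), with overlapping groups. In visceral fat the means were -2.73 ± 0.26 and -2.90 ± 0.47 (SD, n = 8 each), and the difference of -0.17 ± 0.16 did not pass the test (95% interval -0.50 to 0.16, adjusted p = 0.37 in limma). With no scaling the sign turned, to 2.33 in subcutaneous and 2.25 in visceral fat, and with the labelling spike-ins to 2.58 and 2.71. Relative to the median of the 91 miRNAs, the differences of bta-miR-30f were 0.32 and 0.63, and its ranks were 42nd and 40th of 91, near the middle.

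bta-miR-30a-5p, the other repressor of RUNX2, was measured in 8 of 16 Control samples. Its detected intensities were 4.06 to 8.96 in subcutaneous and 5.84 to 8.44 in visceral fat of the Control diet, and 75.7 to 328 and 42.2 to 203 with the High fat diet. The groups did not overlap. With undetected samples set to the detection limit of their own array, the scaled intensity in subcutaneous fat was 5.25-fold higher on the High fat diet, relative to the 91 miRNAs. In visceral fat it was 3.51-fold higher. These values are not strict lower bounds, since the limit is the lowest intensity of any miRNA detected on an array. They were not tested themselves. The fit with undetected samples at the common floor gave an adjusted p of 1.7e-08 and 7.8e-09 in limma. With the percentile over all miRNAs the log2 differences were 0.03 and 0.50. Under normexp, which adds an offset to all intensities, they turned to -1.16 and -1.03.

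bta-miR-30e-5p, a member known to favour adipocyte over osteoblast fate by repressing LRP6, was the dimmest. Where it was detected with the High fat diet, its intensity was 11.9 to 34.6 in subcutaneous and 4.72 to 28.6 in visceral fat. After scaling it was called higher in both depots (adjusted p = 5.7e-05 and 0.012 in limma), with differences that rest on the floor given to undetected samples. Its mean with the High fat diet in subcutaneous fat, -6.54, was no higher than the mean detection limit of the Control arrays, -6.51, so no fold can be given, and in visceral fat it was missing in 3 of 8 samples (steers 109, 204 and 303). With normexp, with the percentile over all miRNAs and, in visceral fat, with a floor at an intensity of 1, the sign turned. The size of its diet difference was not measurable at this brightness. The opposite arm bta-miR-30b-3p was close to the limit as well, with a highest intensity of 13.8 on any array and detection in 21 of 32 samples.

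The comparison between members removed the scaling between arrays, though not the difference in brightness. For the 4 members detected on all arrays, the intensity of 1 member was used as the scale of the array in place of the percentile, and limma was fitted to all miRNAs on that scale. A pair of members was called different in its response when the adjusted p was under 0.05 with each of the pair as the scale, and the larger p is given. All 6 pairs passed in both depots. This share has to be read against the calls among all miRNAs, which were many: 72.6% and 65.6% in subcutaneous and visceral fat with bta-miR-30b-5p as the scale, 78.1% and 68.0% with bta-miR-30c, 78.2% and 70.3% with bta-miR-30d, and 73.3% and 69.9% with bta-miR-30f.

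**Figure D2:**
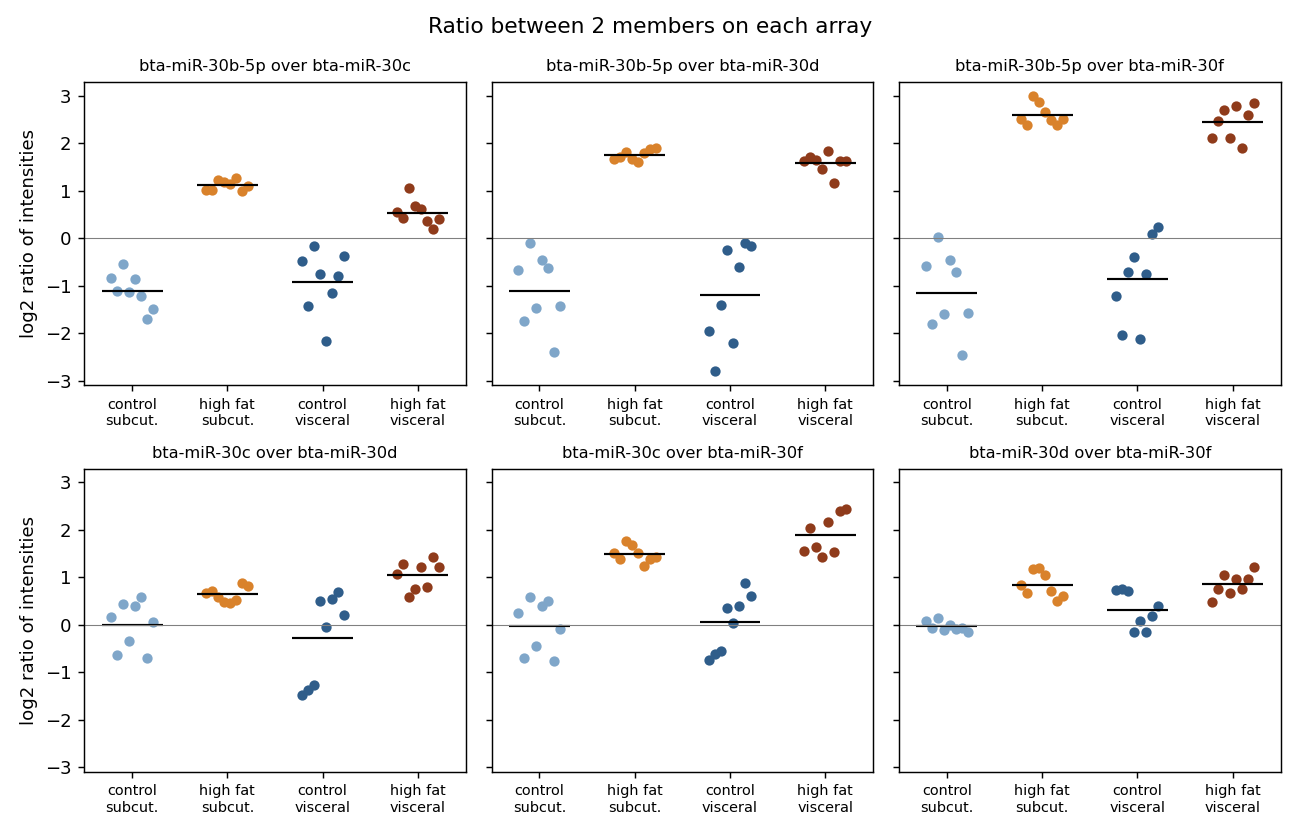
Log2 ratio of the intensities of 2 members on each array (no scaling between arrays), by diet and depot, with 1 point per sample and a bar at the group mean. The height of a ratio depends on the probes and has no meaning by itself; with bta-miR-30b-5p as numerator the diets are apart in both depots, and the ratio of bta-miR-30c over bta-miR-30d overlaps between diets.

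Against its hairpin neighbour bta-miR-30d, bta-miR-30b-5p had a log2 ratio of -2.40 to -0.11 (median -1.05) in subcutaneous fat of the Control diet and of 1.61 to 1.90 (median 1.75) with the High fat diet. Visceral samples ranged over -2.80 to -0.10 and 1.15 to 1.83. The diets did not overlap, and the ratio was 7.31 times higher with the High fat diet in subcutaneous fat (log2 difference 2.87 ± 0.32 SE, adjusted p = 3.3e-09 in limma) and 6.83 times higher in visceral fat (2.77 ± 0.32 SE, adjusted p = 7.4e-09 in limma). Over bta-miR-30f the ratio of bta-miR-30b-5p was 13.4 and 9.90 times higher in the same depots, the largest shifts among the 6 pairs. Over bta-miR-30c it was 4.68 and 2.74 times higher, again with no overlap between diets. Within a group the ratios could follow brightness as well. In visceral fat of the Control diet, bta-miR-30b-5p over bta-miR-30d was -0.25 to -0.10 on the 3 brightest arrays and -2.80 to -0.61 on the other 5, and over bta-miR-30f it was -0.40 to 0.24 against -2.12 to -0.71. In subcutaneous fat of the Control diet the brightest arrays overlapped with the others in both ratios. The part of array brightness in the shifts between diets was not tested.

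bta-miR-30c rose relative to the remaining members. Its log2 ratio to bta-miR-30f was higher by 1.52 ± 0.23 in subcutaneous and 1.85 ± 0.23 in visceral fat (SE, adjusted p = 8.6e-07 and 2.4e-08 in limma), without overlap. Its ratio to bta-miR-30d was higher by 0.64 ± 0.27 and 1.32 ± 0.27 (SE, adjusted p = 0.034 and 8.7e-05 in limma), with overlap in both depots. The ratio of bta-miR-30d to bta-miR-30f was higher by 0.88 ± 0.14 and 0.53 ± 0.14 (SE, adjusted p = 1.7e-06 and 0.0011 in limma). In subcutaneous fat the Control samples lay between -0.15 and 0.14 and the High fat samples between 0.51 and 1.19, and in visceral fat the ranges overlapped.

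These ratios gave the same order of response in both depots: bta-miR-30b-5p, then bta-miR-30c, bta-miR-30d and bta-miR-30f. Most alternatives of processing shift all members of an array alike or change only the test, so they cannot alter this order. With quantile normalization, spot intensities and normexp, which can, it was the same in both depots, as it was in subcutaneous fat without the sample of control steer 108. The distance from the first to the last member varied from 1.99 to 3.82 and from 1.65 to 3.46 log2 units. The smallest distances came with normexp, which adds an offset to all intensities, and the part of this offset was not tested. bta-miR-30a-5p, with undetected samples at the detection limit, had a difference 1.45 log2 units above that of bta-miR-30c in subcutaneous fat and 0.13 above it in visceral fat. These are not strict lower bounds either. The place of bta-miR-30a-5p against bta-miR-30b-5p could not be set. Its value at the limit lies 0.77 and 1.33 log2 units lower, and undetected samples can also lie below the limit.

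**Figure D3:**
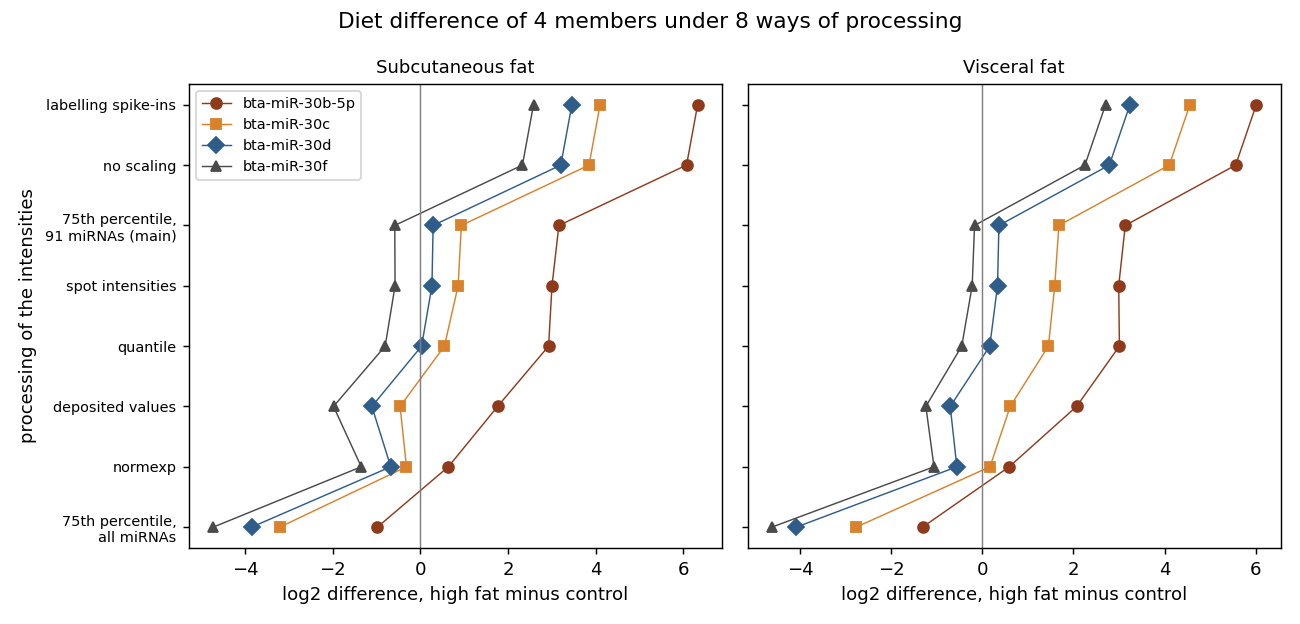
Log2 difference between diets (High fat minus Control) of the 4 members detected on all arrays, in subcutaneous fat (left) and visceral fat (right), under 8 ways of processing the same intensities. Points of 1 member are joined; the sign turns between processings (bta-miR-30f is at -0.58 in the main scaling and at 2.58 with the labelling spike-ins in subcutaneous fat), while the order of the members could change only with quantile normalization, spot intensities and normexp and did not.

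Each member was measured by 2 probes, except bta-miR-30b-5p with 3, which made 13 probes. Of these, 12 were bright enough to be tested. In subcutaneous fat 8 were higher and 2 lower with the High fat diet, and in visceral fat 8 were higher and 0 lower, beside 86.2% and 83.6% of all 383 probes called in either direction (limma on the mean log2 spot intensity of a probe). The share of all probes in each direction was not counted. Those called higher in subcutaneous fat include a probe each of bta-miR-30a-5p, bta-miR-30b-5p and bta-miR-30e-5p that entered the test only through High fat arrays. In visceral fat that of bta-miR-30b-5p is among them. The 3 probes of bta-miR-30b-5p gave differences between 2.60 and 3.09 in subcutaneous and of 2.46, 2.95 and 2.97 in visceral fat. The probe with the smallest difference was not above background on any Control array. The probes of bta-miR-30c gave 0.74 and 0.94 in subcutaneous and 1.58 and 1.60 in visceral fat.

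For bta-miR-30d, the differences in subcutaneous fat were 0.34 and 0.26, and neither passed the test (adjusted p = 0.063 and 0.086 in limma). Those of bta-miR-30f were -0.73 and -0.58 in subcutaneous fat, both past the threshold, and -0.04 and -0.29 in visceral fat, where neither was. The brighter probe of bta-miR-30a-5p gave 2.38 and 2.17 in the 2 depots and was above background on 5 of 16 Control arrays. The dimmer was above background in 8 of 16 High fat samples and 0 of 16 Control samples, so that its differences cannot be set against those of the brighter. For bta-miR-30e-5p 1 probe was too dim to be tested, and the other was above background in 8 of 8 subcutaneous and 2 of 8 visceral High fat samples and in 0 of 16 Control samples, so that no size of its difference is given.

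**Figure D4:**
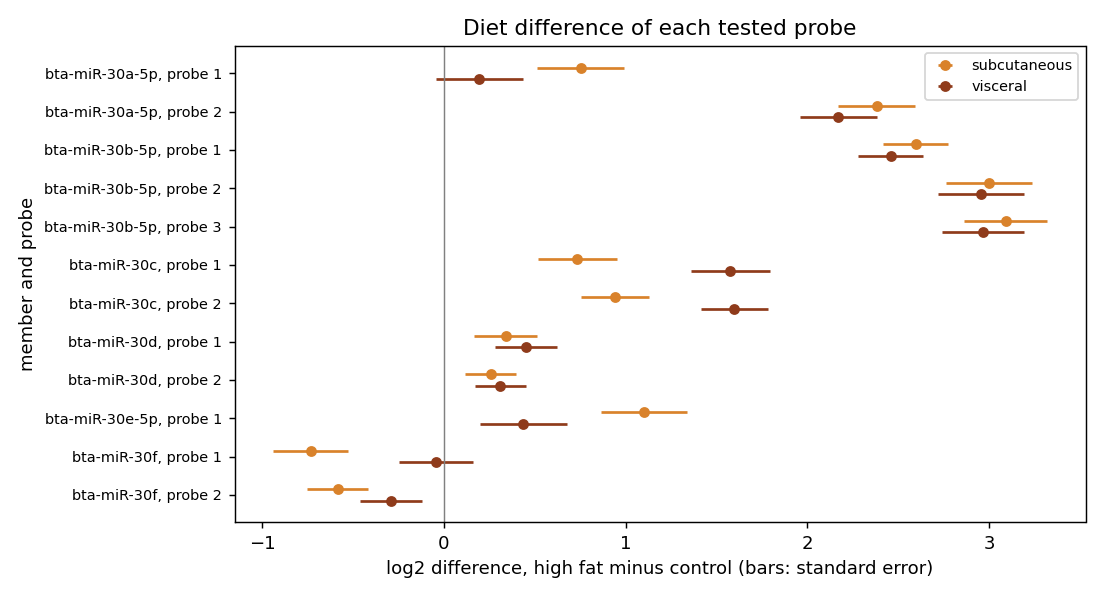
Log2 difference between diets (High fat minus Control, main scaling) of each of the 12 tested probes, in subcutaneous fat (lighter) and visceral fat (darker); bars are standard errors over 32 arrays in 1 fit. The 3 probes of bta-miR-30b-5p lie between 2.46 and 3.09, the dimmer probe of bta-miR-30a-5p and the probe of bta-miR-30e-5p were not above background on any Control array, so their values are not sizes of a change, and the 2 of bta-miR-30f are the ones with negative values; under other scalings all values shift together and signs turn as described for the members.

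Between depots fewer members were called than between diets on the main scale. Not every member differed less in size: bta-miR-30f differed by -0.25 between depots with the Control diet and by -0.17 between diets in visceral fat. With the Control diet 0 of the 6 members passed the test in limma, 0 had an unadjusted p under 0.05 and 0 passed in the methods' t-test, where 18.9% of all miRNAs were called in limma. The interval of the difference, visceral minus subcutaneous, ran from -0.54 to 0.59 for bta-miR-30b-5p, from -0.60 to 0.26 for bta-miR-30c, from -0.17 to 0.37 for bta-miR-30d and from -0.58 to 0.08 for bta-miR-30f on the log2 scale, so that changes of the size seen between diets for bta-miR-30b-5p lie outside it. Of the 8 Control steers, bta-miR-30f was higher in visceral fat in 1 and bta-miR-30c in 3.

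Among steers on the High fat diet 1 member, bta-miR-30c, was called, as higher in the visceral depot, where 26.2% of all miRNAs were called in either direction. Its scaled log2 level was -1.81 to -1.40 in subcutaneous and -1.38 to -0.75 in visceral fat, and these ranges did not overlap. It was higher in the visceral sample of 8 of 8 steers, by 0.58 ± 0.21 on average (SE, 1.49-fold, adjusted p = 0.042 in limma). With the steer as a block the adjusted p was 0.093, and without any 1 of 13 of the 16 samples it rose above 0.05, up to 0.077. Both probes gave the difference, with 0.73 and 0.54 (adjusted p = 0.010 and 0.022 in limma), beside 37.1% of all probes called.

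The call for bta-miR-30c rested on the scaling too: with no scaling the difference was -0.29, and with the labelling spike-ins it was 0.06. Against bta-miR-30b-5p as the scale, bta-miR-30c was higher by 0.57 ± 0.20 in visceral fat (SE), with an adjusted p of 0.10 on one scale and 0.029 on the other in limma. The depots also differed in markers of other cells. Of the 8 miRNAs listed for kidney epithelium, bta-miR-194 was detected in all 16 High fat samples and was higher in visceral fat by 0.54 (-0.33 with no scaling), bta-miR-192 was detected in 7 of 8 samples of either depot, and the epithelial miRNAs bta-miR-200a, bta-miR-200c, bta-miR-141 and bta-miR-429 were detected in none. The summed scaled intensity of this list was 0.0139 to 0.0297 in subcutaneous and 0.0179 to 0.0379 in visceral fat of these steers, with 3 and 4 of its 8 miRNAs detected in any sample. The endothelial miRNA bta-miR-126 was higher in visceral fat by 0.57 with the High fat diet (-0.30 with no scaling) and by 0.66 with the Control diet. Of the 6 stromal miRNAs 4 were lower in visceral fat with the High fat diet, namely bta-miR-199a-3p (-0.88), bta-miR-199a-5p, bta-miR-199b (-1.03) and bta-miR-214 (-0.68), and 1 was higher, bta-miR-145 (0.67, but -0.19 with no scaling). Of the blood miRNAs bta-miR-223 was lower (-0.85) and bta-miR-486 higher (0.73, but -0.14 with no scaling). The part of these cells in the level of bta-miR-30c was not tested.

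**Figure D5:**
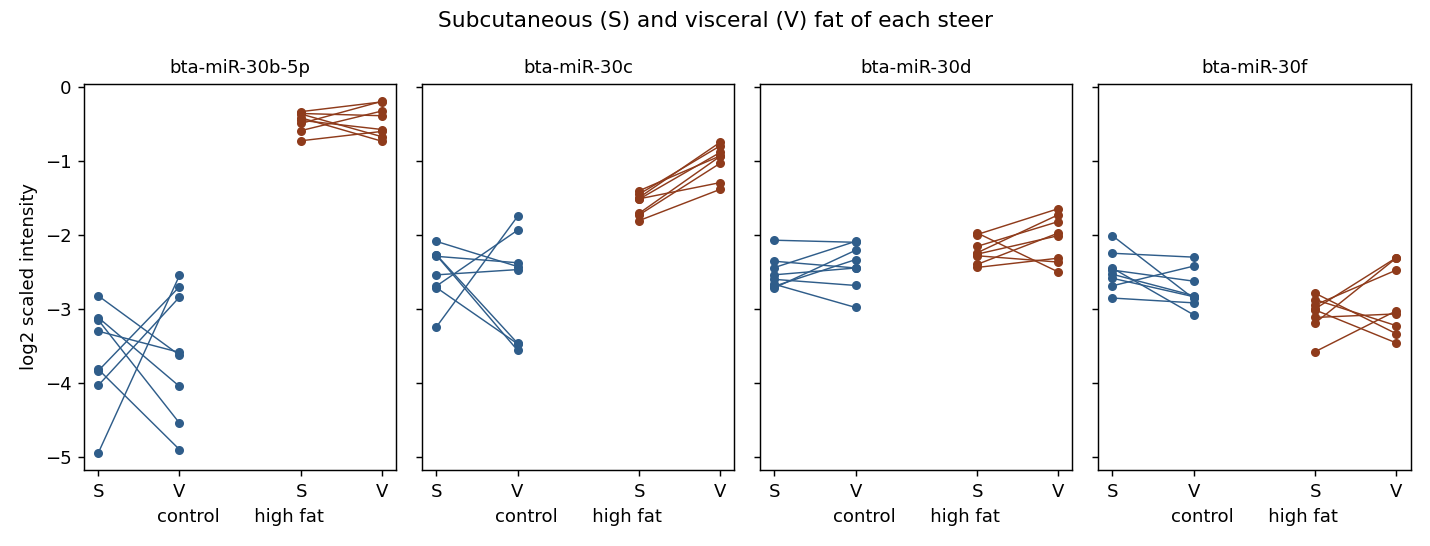
Scaled log2 intensity of the 4 members detected on all arrays in subcutaneous (S) and visceral (V) fat, with a line for each steer, Control diet on the left of each panel and High fat diet on the right. For bta-miR-30c 8 of 8 lines rise with the High fat diet, which was not kept without scaling (-0.29) and was 0.06 with the labelling spike-ins, and for bta-miR-30b-5p the lines of the Control steers cross widely.

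The other 5 members did not pass the depot test among steers on the High fat diet. For bta-miR-30b-5p the depots differed by 0.01, with an interval from -0.56 to 0.57. Those of bta-miR-30d and bta-miR-30f were 0.17 and 0.16, with intervals up to 0.44 and 0.49. No member had a diet difference that was shown to depend on the depot: of the 6 interactions 0 passed in limma, where 1.72% of all miRNAs did, and 1 had an unadjusted p under 0.05. This was bta-miR-30c, whose diet difference was larger in visceral fat by 0.75 ± 0.30 (SE, adjusted p = 0.25 in limma). No other tool was run on the interactions.

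Ordered by their group means, bta-miR-30b-5p and bta-miR-30a-5p gave a pair of Control groups below a pair of High fat groups, with no call between depots inside a pair. bta-miR-30c had its means in the order Control visceral (-2.68), Control subcutaneous (-2.51), High fat subcutaneous (-1.58) and High fat visceral, and the first 2 neighbours did not differ past the threshold. The 4 means of bta-miR-30d, from -2.51 to -2.05, and of bta-miR-30f, from -3.06 to -2.48, lay close together. For bta-miR-30f the lowest mean, High fat subcutaneous, did not differ past the threshold from its neighbour High fat visceral, while the extremes were 0.58 apart. High fat visceral lay below Control subcutaneous by 0.42 (adjusted p = 0.019 in limma). With no scaling or with the labelling spike-ins both High fat groups lay above the Control groups instead.

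Which miRNAs varied from steer to steer like a member was described by the SD of the log2 ratio of both within groups, over the 91 miRNAs detected on all 32 arrays. This measure needs no scaling, and a low value means that the ratio stayed constant among steers. For bta-miR-30b-5p the steadiest ratios outside the family were with bta-miR-29a (SD 0.27) and bta-miR-27b (0.33), where the median over 90 miRNAs was 0.69. For bta-miR-30c they were with bta-let-7g (0.22) and bta-miR-151* (0.26). For bta-miR-30d they were with bta-miR-320 (0.23) and bta-miR-331 (0.25), and for bta-miR-30f with bta-miR-145 (0.25) and bta-let-7d (0.26). These partners changed with the arrays used. On High fat arrays alone the steadiest were bta-miR-186 for bta-miR-30b-5p, bta-miR-107 for bta-miR-30c, bta-let-7d for bta-miR-30d and bta-miR-365-3p for bta-miR-30f. On Control arrays alone bta-miR-29a, bta-let-7g and bta-miR-320 again came first outside the family, but bta-let-7f did for bta-miR-30f.

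Among the 4 members detected on all arrays the steadiest ratio was that of bta-miR-30d and bta-miR-30f (0.27, rank 4 of 90 from the side of bta-miR-30f), followed by that of bta-miR-30b-5p and bta-miR-30c (0.40, rank 8 of 90 from the side of bta-miR-30b-5p). The hairpin neighbours bta-miR-30b-5p and bta-miR-30d had a wide ratio over all arrays (0.66, rank 42 of 90 from the side of bta-miR-30b-5p). The width lay in the Control arrays, where the SD was 0.92, while on the 16 High fat arrays it was 0.16, rank 14 of 158 miRNAs detected there. The neighbours bta-miR-30a-5p and bta-miR-30f, which could be set side by side on High fat arrays only, had an SD of 0.46, rank 92 of 158 from the side of bta-miR-30a-5p. The points of these ratios share the arrays and their brightness, and no test was made.

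Beside the family, other miRNAs with a known part in fat cell formation were counted. Of 14 miRNAs listed as proadipogenic 13 were tested, and 11 were higher and 1 lower with the High fat diet in subcutaneous fat, and 12 higher and 0 lower in visceral fat, beside 41.6% higher and 34.3% lower over all miRNAs tested in the first depot and 42.1% and 29.6% in the second. The median log2 difference was 2.05 and 1.47, beside 0.10 and 0.17 over all miRNAs. The medians turned to -0.63 and -1.34 with the percentile over all miRNAs and to -0.67 and -0.39 with normexp, and with the labelling spike-ins all 13 were higher in both depots. The largest changes in subcutaneous fat were those of bta-miR-19a, bta-miR-21 and bta-miR-17-5p, which were detected in 0, 4 and 2 of 8 Control samples and in 8 of 8 High fat samples. bta-miR-19a was detected in 0 visceral Control samples too. It is in these counts and medians although, with the floor, it could not come out lower. Over the 6 listed miRNAs detected on all arrays the medians were 0.79 and 0.91, beside -0.91 and -0.80 over the 91. Of 18 miRNAs listed as antiadipogenic 16 were tested, and 4 were higher and 7 lower in subcutaneous fat and 3 higher and 7 lower in visceral fat, beside the same shares over all miRNAs, with a median of -0.23 and -0.18, whereas with the labelling spike-ins 15 and 14 were higher. Among them, relative to the 91 miRNAs, bta-let-7b fell by 2.75 and bta-let-7c fell by 2.63 on the log2 scale in subcutaneous fat (adjusted p = 4.2e-16 and 3.5e-16 in limma), which turned to 0.41 and 0.54 with the labelling spike-ins and to 0.16 and 0.28 with no scaling. bta-miR-130a was higher by 3.02 (adjusted p = 5.4e-07 in limma), and its sign turned only with the percentile over all miRNAs (-0.75).

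Between depots the members of the lists called are given beside the 18.9% of all miRNAs called with the Control diet and the 26.2% with the High fat diet. In the proadipogenic list 1 was higher and 1 lower in visceral fat with the Control diet, namely bta-miR-378 by 0.89 and bta-miR-204 by -1.47, and with the High fat diet 1 was higher and 2 were lower. In the antiadipogenic list 3 were higher and 1 lower with the Control diet and 2 higher and 3 lower with the High fat diet. Both lists were written with earlier results of these data known.

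Markers of other cells moved with the diet as well, which bears on all members. The summed scaled intensity of the 2 endothelial miRNAs had a median of 0.918 in subcutaneous fat of the Control diet and of 4.43 with the High fat diet, and ranged from 0.863 to 2.42 against 5.09 to 8.23 in visceral fat, with no overlap between diets in either depot. For bta-miR-126 the sign of the diet difference turned with the percentile over all miRNAs (-2.03 and -2.42). That of 6 stromal miRNAs was 2.92 to 4.38 against 4.76 to 5.97 in subcutaneous fat, and overlapped in visceral fat. Its miRNAs went different ways: on this scale bta-miR-199b was higher by 2.91 in subcutaneous fat (-1.24 with the percentile over all miRNAs) and bta-miR-214 lower (-1.79, but 1.38 with the labelling spike-ins). That of 6 blood miRNAs overlapped between diets in both depots, while single ones differed. bta-miR-486 was lower (-2.61 and -2.56, but 0.55 and 0.32 with the labelling spike-ins), bta-miR-142 was detected in 0 of 16 Control and 16 of 16 High fat samples, and bta-miR-451 in 5 and 16. The summed intensity of 5 muscle miRNAs did not exceed 0.228 in any sample and overlapped between diets. Among them bta-miR-1 was detected in 0 of 8 subcutaneous and 1 of 8 visceral Control samples and in 8 of 8 High fat samples of either depot. It was higher by 2.01 and 2.21 (-1.72 and -1.33 with normexp), while bta-miR-133a and bta-miR-133b were not called. The miRNAs of kidney epithelium were detected in 0 of 16 Control samples, and bta-miR-122 of liver in 0 of 16 subcutaneous samples and, in visceral fat, in 1 of 8 Control and 2 of 8 High fat samples, with a scaled intensity of up to 0.277 and 0.427. The miRNAs abundant in fat, bta-miR-378 and bta-miR-103, were detected in all 32 samples and bta-miR-143 in 21. The part of these cells in the diet differences was not tested.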

How the data were processed

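Total RNA of 32 fat samples was measured on 1-colour Agilent arrays. Per the file headers, the authors extracted each array with Feature Extraction 10.7.3.1 and deposited intensities after background subtraction, for single spots and summed for each miRNA (0.1 where not detected), without scaling between arrays. The authors also deposited log2 values normalised to the 75th percentile, used here as an alternative. Names are those of the array.

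The total intensity of each miRNA was scaled to the 75th percentile among those 91 miRNAs that every array detected, floored at 0.00671 and taken as log2. The 233 of 240 miRNAs detected on at least 8 arrays that varied were fitted with limma 3.58.1 in R 4.3.3 (4 groups in 1 fit, Benjamini-Hochberg adjusted p under 0.05), tested on simulated data beforehand. All members, and for each the 2 miRNAs with the steadiest ratio, were named, with at most 3 of each list. Members and lists were chosen with earlier results of these data known.

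Diet and depot come from the sample labels. The steer number pairs the depots, since both samples come from the same animal. Over 16 steers the deviations of the 2 samples correlated with a median r of -0.06 (-0.39 to 0.65). The number of arrays and the detection limit of each array set the precision. Members' sequences are not given, and the qRT-PCR data were not used here.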

Additional observations from a re-analysis of the deposited data

How the results depend on the processing

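The diet differences of single members depended on the scaling between arrays, which a ratio of 2 members does not contain. All 12 diet differences between 2 members kept their direction and their side of the threshold with spot intensities and with normexp. Those in subcutaneous fat also did so without the sample of control steer 108, which does not enter the visceral differences. Their size did change: with normexp the distance from the first to the last member went from 3.74 to 1.99 in subcutaneous fat. In visceral fat it went from 3.31 to 1.65. Against 6 members called in subcutaneous fat and 5 in visceral fat, the percentile over all miRNAs called 3 and 4, as lower, and restricting to miRNAs detected on all arrays left 4 members, of which 3 were called in either depot. The methods' t-test called 3 in visceral fat with Bonferroni as with Benjamini-Hochberg adjustment. Signs turned as follows, each pair of values giving subcutaneous and then visceral fat. With the percentile over all miRNAs the diet difference was -0.98 and -1.31 for bta-miR-30b-5p, -3.20 and -2.77 for bta-miR-30c, -3.85 and -4.08 for bta-miR-30d, and -0.061 and -0.19 for bta-miR-30e-5p. With normexp it was -1.16 and -1.03 for bta-miR-30a-5p, -0.67 and -0.56 for bta-miR-30d, -2.05 and -1.66 for bta-miR-30e-5p, and -0.32 in subcutaneous fat for bta-miR-30c. With the deposited values it was -1.10 and -0.70 for bta-miR-30d and -0.46 in subcutaneous fat for bta-miR-30c. It was 2.33 and 2.25 without scaling and 2.58 and 2.71 with the labelling spike-ins for bta-miR-30f, and -0.30 in visceral fat for bta-miR-30e-5p with a floor at an intensity of 1. Between depots on the High fat diet, the values without scaling were -0.29 for bta-miR-30c, -0.69 for bta-miR-30d and -0.71 for bta-miR-30f, and with normexp 0.35 for bta-miR-30a-5p and 0.63 for bta-miR-30e-5p.

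In that comparison 1 member was called, against 0 with the percentile over all miRNAs, with the deposited values and with the steer as a replicate block, 2 with a floor at an intensity of 1, and 4 without scaling and with normexp. When each array was left out in turn, an alternative chosen after seeing the data, 0 to 2 members were called there, 0 with the Control diet, 5 to 6 between diets in subcutaneous fat and 5 in visceral fat. The block changed no other call between depots. The cause of these changes was not tested. Normexp adds an offset to all intensities, and fewer members enter when all arrays must detect them. Dim members are limited by the detection limit of the Control arrays.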
